A study of Homo sapiens with 7 samples.

Results

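The genes described here are the splicing factors and splicing kinases named SRSF (older symbols SFRS), HNRNP, SF3A or SF3B, with the kinases CLK1 to CLK4 and the SR-like proteins TRA2A and TRA2B. They were chosen by current gene symbol, with pseudogenes, readthrough transcripts and noncoding neighbours left out. Of 53 protein-coding genes with these names, 44 had a probe set listed for that gene alone, out of 19775 genes so represented on the array. They were 4 CLK kinases, 2 TRA2 genes, 10 SR proteins, 19 hnRNPs, 3 SF3A and 6 SF3B subunits. The 9 without a value were SRSF2, SRSF9, HNRNPH2, HNRNPA1L2, HNRNPCL1, HNRNPCL2, HNRNPCL3 and HNRNPCL4, which share their probe sets with another gene, and HNRNPA1L3, for which the annotation lists none. Each gene is given by its probe set with the highest mean log2 intensity over the arrays, and the remaining probe sets of these genes are described separately.

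HSC-3, a human cell line from an oral squamous carcinoma, was kept at 37 °C as the untreated control or given 90 min of heat at 42 °C or 44 °C. Heated cells were taken at 0, 6 or 12 h of recovery at 37 °C. Each of the 7 conditions was measured on 1 Affymetrix U133 Plus 2.0 array, a set of short DNA probes read as fluorescence intensity, from total RNA. There is thus no spread between replicates, no test was made, and every difference below compares the arrays named.

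SR proteins carry domains rich in arginine and serine and bind exons to promote their splicing, while hnRNPs coat nascent RNA and often favour exon skipping. SF3A and SF3B are the protein complexes with which the U2 snRNP grips the branch site of an intron. CLK kinases phosphorylate SR proteins, which decides where these proteins sit in the nucleus and how active they are. Heat is a classic disturbance of this system: the SR protein SRSF10 loses phosphate and represses splicing, and some SR proteins gather in nuclear stress bodies. CLK1 transcripts can be held in the nucleus with introns retained until they are spliced. Many SR protein and hnRNP genes also make transcripts with a retained intron or a poison exon, by which they limit their own output.

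The arrays differed in overall level, which touches every value below. Over the 20902 probe sets that reached the floor on all arrays, the arrays after 42 °C sat -0.13, 0.24 and 0.16 log2 units from the control in the median (0, 6 and 12 h), and those after 44 °C 0.40, -0.07 and -0.35. The floor is an intensity of 21.4, the median of all values, below which a reading was set to it. The words rose, fell and called are kept for genes past 2-fold under each of 3 scalings, namely as deposited, after quantile normalization and after removal of the median shift just given. Intensities are printed as deposited, and a fold after the median shift is called shift-corrected. The heat labels were borne out by HSPA6, the strictly inducible HSP70, which read 4.8 in the control, 12566, 262 and 18.9 at 42 °C and 5143, 7596 and 8788 at 44 °C. The 6 keratinocyte markers with a value reached the floor on all arrays, with a summed intensity of 37872 to 53799. The floor was also reached on all arrays by 1 of 8 fibroblast markers (COL1A1, sum of the list 249.7 to 485), 1 of 6 leukocyte markers (ITGAM, 93.9 to 163) and 1 of 6 endothelial markers (PECAM1, 55.7 to 92.6). Of these 3 genes COL1A1 also reached 4 times the floor. RNA came from whole cultures, so a lower level per cell and fewer cells with the transcript cannot be told apart.

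Of the 44 genes, 43 reached the floor on at least 1 array. SRSF12, a tissue-restricted SR protein, read between 4.5 and 19.1 and was below the floor on all arrays. The chosen probe sets of SRSF7, SRSF8, HNRNPA1, HNRNPC, HNRNPU and SF3B4 end in x_at, which marks probes that may also bind other sequences, so their values are less certain. Among the 43, CLK1 rose directly after 42 °C, and no other gene of the set was called against the control on any heated array. That is 1 gene higher and 0 lower of 43 at 42 °C, 0 h, where 1.46% of all 14973 genes reaching the floor were called higher and 3.11% lower. At 42 °C the count was 0 at 6 h, against 1.51% of all genes higher and 1.95% lower, and 0 at 12 h, against 0.968% and 1.36%. At 44 °C it was 0 at 0 h, against 2.12% higher and 0.675% lower, 0 at 6 h, against 1.49% and 2.62%, and 0 at 12 h, against 1.7% and 3.53%. Counts of 0 or 1 in 43 do not set these genes apart from such shares. The 6 comparisons share the control array and are not independent of each other.

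**Figure D1:**
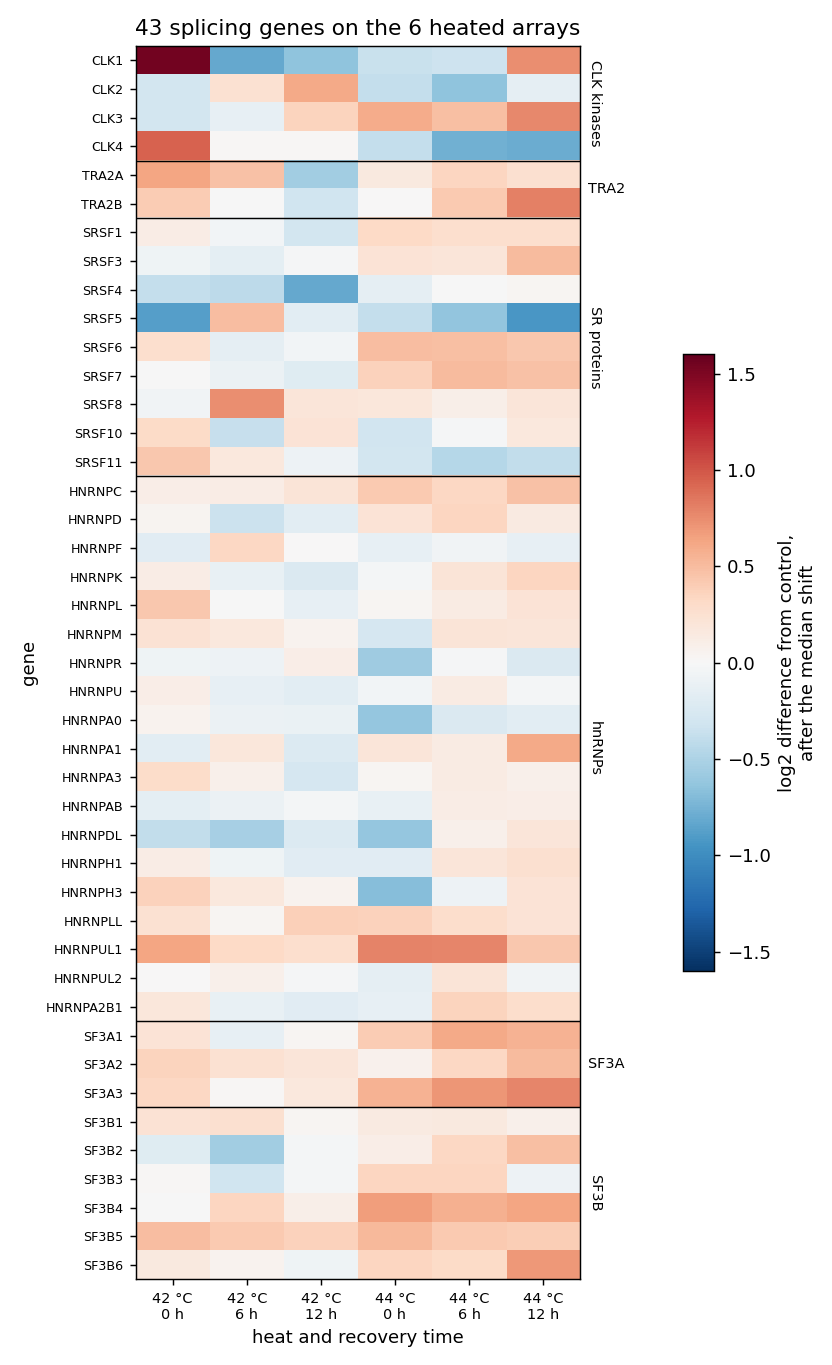
Log2 difference from the control after the median shift (colour, red higher and blue lower) for 43 genes (rows, by role) on the 6 heated arrays (columns), 1 array each. CLK1 at 42 °C, 0 h is the strongest cell at 1.54, SF3A1, SF3A2 and SF3A3 are above 0 on all 44 °C arrays, and SRSF5 lies below 0 everywhere but at 42 °C, 6 h.

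The CLK kinases spanned a wider range over the arrays than any other role group under each scaling. They were also the dimmest group, with a control median of 263 against 623 to 3192 in the others. Range differed with brightness. As deposited its median was 2.14-fold over genes reaching 4 times the floor and 1.76-fold over genes with a mean of at least 1000. CLK1, which phosphorylates SR proteins and is itself regulated by intron retention, read 257 in the control, 682, 173 and 184 at 42 °C after 0, 6 and 12 h, and 265, 195 and 339 at 44 °C. Only the array taken directly after 42 °C stood far above the rest, and the array at the same time after 44 °C was level with the control. CLK1 rose 2.65-fold at 42 °C, 0 h (shift-corrected 2.91-fold). Within 6 h at 37 °C it fell 3.94-fold (shift-corrected 5.11-fold), from highest to lowest of the 7 arrays. Directly after heat it was 2.57-fold lower at 44 °C than at 42 °C (shift-corrected 3.72-fold). CLK1 has 1 single-gene probe set, so no other probe set of it could be set beside these values.

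CLK4, the closest relative of CLK1, had its highest reading on the same array. It read 305 in the control, 534, 367 and 345 at 42 °C and 308, 170.3 and 138 at 44 °C. The highest value was thus 1.75 times the control (shift-corrected 1.92), short of the threshold, and the lowest, at 44 °C, 12 h, was 2.21-fold below it (shift-corrected 1.74-fold), which is not a call either. A less bright CLK4 probe set, 228751_at, read 119 in the control, 176, 93.9 and 89.5 at 42 °C and 90.1, 65.6 and 33.9 at 44 °C. Both probe sets were highest at 42 °C, 0 h and lowest at 44 °C, 12 h, where the signal of the second fell 3.52-fold (shift-corrected 2.76-fold).

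CLK2 and CLK3, whose products act on the same class of substrates, ran differently at 42 °C. CLK2 read 268 in the control, 199, 375 and 456 at 42 °C and 273, 163 and 191 at 44 °C. CLK3 read 168 in the control, 126, 182 and 242 at 42 °C and 337, 224 and 225 at 44 °C. Both were below the control directly after 42 °C, where CLK1 and CLK4 were above it, and neither passed 2-fold under all scalings in any comparison. CLK3 at 44 °C, 0 h was just outside on the deposited scale and 1.51-fold above the control when shift-corrected. From lowest to highest array the 4 kinases spanned 2.68-fold to 3.94-fold as deposited. Their median of 3.34-fold (shift-corrected 2.86-fold) compares with 1.87-fold (1.63-fold) for 9 SR proteins, 1.84-fold (2.23-fold) for the 2 TRA2 genes, 1.62-fold (1.47-fold) for 19 hnRNPs, 1.75-fold (1.66-fold) for SF3A and 1.84-fold (1.59-fold) for SF3B.

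**Figure D2:**
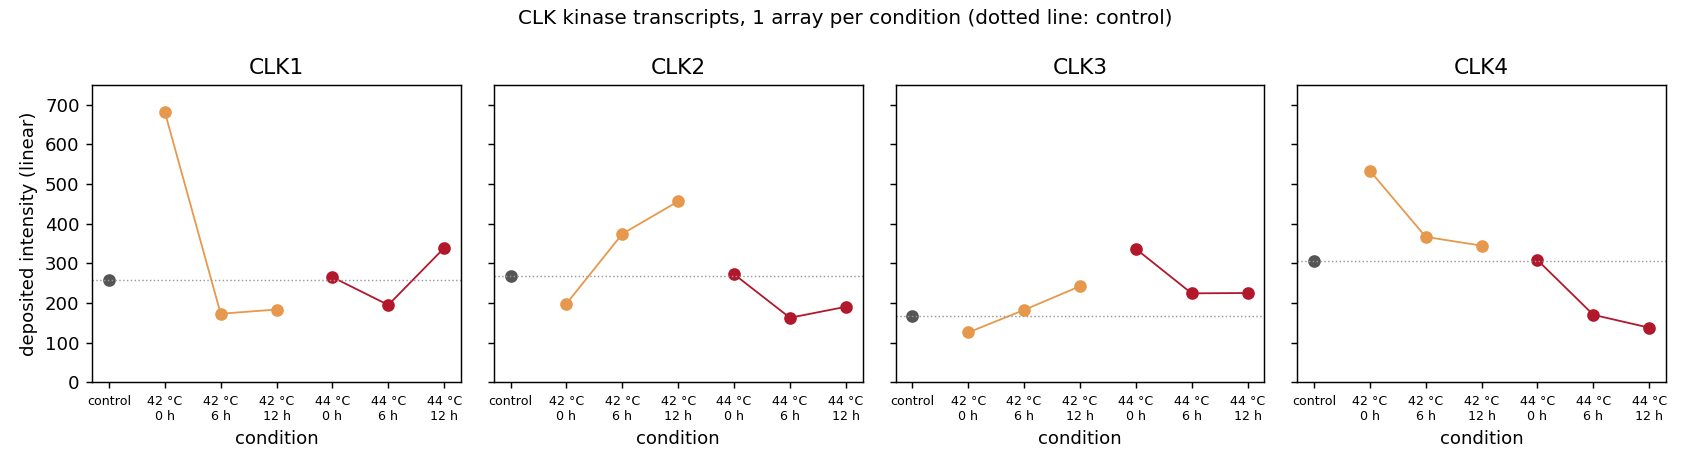
Deposited intensity (linear axis from 0) of CLK1, CLK2, CLK3 and CLK4 on the 7 arrays, 1 point per array, with the control as a dotted line. CLK1 (682) and CLK4 (534) peak directly after 42 °C, while CLK2 (199) and CLK3 (126) lie below their control there.

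Promoters were compared for the heat shock element, the repeat of alternating GAA and TTC units bound by heat shock factors, because CLK1 was highest on the array where HSPA6 was too. RefSeq windows of 300 bases (250 before to 50 after each gene start, build GRCh38.p14) were searched for 3 perfect units in either form, GAANNTTCNNGAA or TTCNNGAANNTTC, which covers both strands. The motif was in 172 of 35116 windows (0.49%) and in 1 of 58 windows of the 41 genes described here that had one. That window belongs to HNRNPA2B1, an hnRNP of messenger RNA packaging and transport. The match is shown in capitals beside that of HSPA6, with windows before the start of CLK1, which rose, and of SRSF5, described next, neither of which holds the 13 letters. Each sequence runs 5′ to 3′ on the strand of its gene.
HSPA6, chr1:161524442-161524501, plus strand: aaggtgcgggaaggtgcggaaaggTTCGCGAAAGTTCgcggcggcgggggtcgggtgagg
HNRNPA2B1, chr7:26200749-26200808, minus strand: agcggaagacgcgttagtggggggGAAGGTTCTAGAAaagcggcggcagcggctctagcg
CLK1, chr2:200864659-200864908, minus strand: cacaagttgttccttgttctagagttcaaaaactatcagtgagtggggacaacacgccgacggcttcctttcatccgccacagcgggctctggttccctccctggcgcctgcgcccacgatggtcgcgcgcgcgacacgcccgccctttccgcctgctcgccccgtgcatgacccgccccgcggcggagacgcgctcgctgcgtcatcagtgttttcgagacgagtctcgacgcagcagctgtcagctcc
SRSF5, chr14:69766892-69767141, plus strand: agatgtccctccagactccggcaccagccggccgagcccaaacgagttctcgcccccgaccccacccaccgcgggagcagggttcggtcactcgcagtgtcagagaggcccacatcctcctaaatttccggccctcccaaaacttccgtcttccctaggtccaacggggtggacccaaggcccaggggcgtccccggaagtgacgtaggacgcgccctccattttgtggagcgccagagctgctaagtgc
HNRNPA2B1 read 7329 to 9350.1 over the 7 arrays, a 1.28-fold range by its chosen probe set, while its probe set 225107_at ranged from 122 to 551. A match is a description of letters and not a bound site. The absence of one from the CLK1 and SRSF5 windows says nothing about the factor.

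SRSF5 was the most variable SR protein, with 4.06-fold between its highest and lowest arrays as deposited. The gene encodes a small SR protein that activates splice sites. It read 2177 in the control, 1079, 3626 and 2166 at 42 °C after 0, 6 and 12 h, and 2213, 1331 and 893 at 44 °C. Directly after 42 °C it was at its second lowest value, 6 h later at its highest, and at 12 h level with the control. At 44 °C each later array was lower than the one before. A second probe set, 203380_x_at, followed the same order over recovery at both temperatures: 1345 in the control, 698, 2227 and 1330.0 at 42 °C and 1226, 843 and 612 at 44 °C.

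Between 0 and 6 h after 42 °C SRSF5 rose 3.36-fold (shift-corrected 2.59-fold), and the second probe set 3.19-fold (2.46-fold). At 6 h it was 2.72-fold lower after 44 °C than after 42 °C (shift-corrected 2.19-fold), and by the second probe set 2.64-fold lower (2.12-fold). Its differences from the control fell short under at least 1 scaling. Directly after 42 °C the reading was 2.02-fold below the control as deposited and 1.84-fold shift-corrected, and at 44 °C, 12 h it was 2.44-fold and 1.91-fold below. Probe set 210077_s_at, also of SRSF5, read 68.6 in the control, 32.9, 64.0 and 60.2 at 42 °C and 47.8, 21.8 and 43.2 at 44 °C. It too was higher at 6 h than at 0 h after 42 °C, but there stood below its control.

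**Figure D3:**
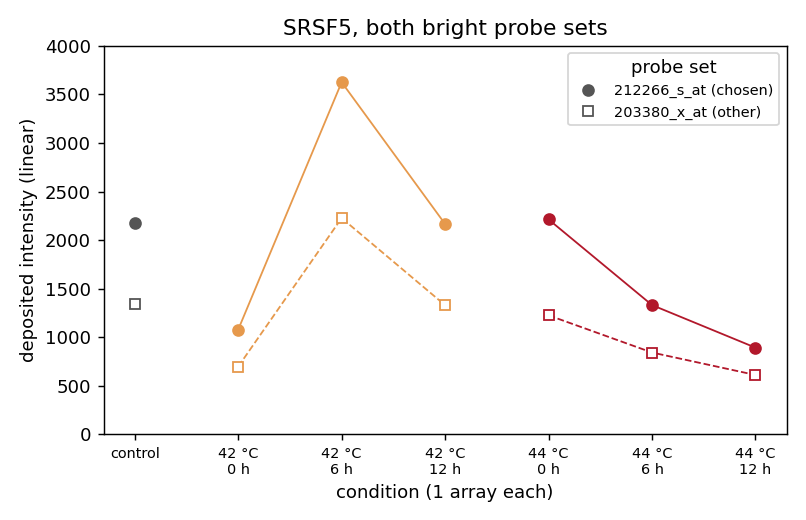
Deposited intensity (linear axis from 0) of SRSF5 on the 7 arrays by its chosen probe set (filled circles) and a second bright one (open squares). Both are low at 42 °C, 0 h (1079 and 698), highest at 42 °C, 6 h (3626 and 2227) and decline from array to array at 44 °C.

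Among the other SR proteins none was called against the control or between temperatures. SRSF8, a close relative of SRSF2, read 760.1 in the control, 670 at 42 °C, 0 h, 1508 at 6 h and 976 at 12 h, and 1136, 771 and 683 at 44 °C. Its 6 h peak after 42 °C fell on the same array as that of SRSF5, at 1.98 times the control (shift-corrected 1.68). That peak is of the chosen probe set, which ends in x_at. Probe sets 228760_at and 238929_at of SRSF8 were below their controls on that array, at 138 after 178 and at 83.5 after 104. SRSF4, which bears a long arginine-serine domain, read 1430.4 in the control, 1004, 1270.4 and 908 at 42 °C and 1705, 1354 and 1146 at 44 °C. SRSF11, an SR-related protein, read 3379 in the control, 4140.1, 4479.9 and 3576 at 42 °C and 3634, 2334 and 2027 at 44 °C. The 6 h and 12 h values at 44 °C were below the control under each scaling. Those at 42 °C were above it as deposited, but the 12 h one was below it when shift-corrected. A much dimmer SRSF11 probe set, 213742_at, read 76.1 in the control and 40.4, 116 and 92.7 at 42 °C, so it was below its control at 0 h.

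SRSF10, the heat-sensitive splicing repressor, read 1619 in the control, 1818, 1479 and 2116 at 42 °C and 1726, 1525 and 1429 at 44 °C. Another SRSF10 probe set, 204299_at, read 471 in the control, 342, 431 and 595 at 42 °C and 350.4, 404 and 196 at 44 °C. SRSF1, SRSF3, SRSF6 and SRSF7, core SR proteins, had their highest values on the array with the highest overall level, at 44 °C, 0 h. SRSF1 read 5595 in the control and 9237 there, SRSF3 6216 and 9508, SRSF6 1219.9 and 2273, and SRSF7 4492 and 7640.5. Against the shift of 0.40 log2 units on that array, these 4 genes stood at most 0.50 log2 units above the control.

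TRA2A and TRA2B, which bind GAA-rich enhancers in exons, were both above the control directly after 42 °C by their chosen probe sets. TRA2A read 1086 in the control, 1538, 1779 and 823 at 42 °C and 1604, 1314 and 1015 at 44 °C. Between 6 and 12 h after 42 °C it fell 2.16-fold (shift-corrected 2.04-fold), from its highest to its lowest array. That call rests on the chosen probe set. A less bright TRA2A probe set, 229574_at, read 91.6 in the control and 59.3, 66.8 and 105 at 42 °C. It was thus below its control at 0 h, and higher at 12 h than at 6 h. TRA2B read 4993 in the control, 6051, 5894 and 4498 at 42 °C and 6594, 6368 and 6854 at 44 °C. At 12 h TRA2B was 1.52-fold higher after 44 °C than after 42 °C as deposited and 2.17-fold shift-corrected, which is not a call under the rule.

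Between the temperatures at the same time, 1 of 43 genes was called lower at 0 h (CLK1), against 0.608% of all genes lower and 2.9% higher. At 6 h it was again 1 lower (SRSF5), against 4.45% lower and 1.68% higher. At 12 h it was 0, against 3.59% lower and 1.76% higher. Between recovery times at 42 °C, SRSF5 was called higher and CLK1 lower from 0 to 6 h, against 3.74% and 1.04% of all genes. From 6 to 12 h TRA2A was called lower, against 0.915% of all genes lower and 0.975% higher. At 44 °C no gene of the set was called between 0 and 6 h, where 0.22% were higher and 1.25% lower, nor between 6 and 12 h, where 0.955% were higher and 0.875% lower.

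None of the 19 hnRNPs was called in any comparison. Their ranges over the 7 arrays ran from 1.25-fold for HNRNPH1, a binder of G-rich sequence, to 2.30-fold for HNRNPUL1, a relative of the scaffold protein HNRNPU. HNRNPUL1 read 1116 in the control, 1571, 1648 and 1504 at 42 °C and 2561, 1831 and 1185 at 44 °C, with all heated arrays above the control. At 44 °C, 0 h it was 2.30 times the control as deposited and 1.74 times shift-corrected. HNRNPH1 read 7498 to 9340.4, and HNRNPM 2755 to 4084.

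On the same 44 °C, 0 h array several hnRNPs stood below the array's shift. HNRNPH3, related to HNRNPH1, read 1773 in the control, 2086, 2349.9 and 2056 at 42 °C and 1458, 1590 and 1624 at 44 °C. As deposited, all 3 values after 42 °C were above the control and all 3 after 44 °C below it. When shift-corrected, the 44 °C, 12 h value was above the control. At 0 h it was 1.43-fold lower after 44 °C than after 42 °C as deposited and 2.07-fold shift-corrected, which is no call. HNRNPA0, a binder of AU-rich elements, read 3200 in the control and 2747, 2590 and 2244 at 44 °C. HNRNPR read 4273 in the control and 3798, 4003 and 2853 at 44 °C. Another HNRNPR probe set, 208765_s_at, read 1496 in the control, 794, 837 and 771 at 42 °C and 956, 955 and 710 at 44 °C. It was thus below its control at 42 °C, 12 h, where the chosen one, at 5132, was above its own.

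The median hnRNP difference from the control, minus that of all genes, lay between -0.12 and 0.20 log2 units on the 6 heated arrays when shift-corrected, and between -0.14 and -0.02 after quantile normalization. For all 43 genes, as deposited, it came to 0.05, 0.11 and 0.04 over the 3 arrays after 42 °C, then 0.05, 0.13 and 0.04 over those after 44 °C. The sign was not kept under the other scalings. After quantile normalization it was -0.002, -0.02 and -0.09, then 0.07, 0.02 and -0.002. Shift-corrected it was 0.12, -0.003 and -0.03, then 0.03, 0.20 and 0.22.

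The SF3A subunits, which join the U2 snRNP to the branch site, stood above the control on all 44 °C arrays. SF3A3 read 623 in the control, 713, 749 and 781 at 42 °C and 1204, 963 and 841 at 44 °C. SF3A1 read 894 in the control, 949, 969 and 1025 at 42 °C and 1567, 1293 and 1036 at 44 °C. SF3A2 read 136 in the control, 159, 192 and 174 at 42 °C and 188, 162 and 152 at 44 °C. They were above the control under each of the 3 scalings on each 44 °C array, though none passed 2-fold. As deposited the control was the lowest of the 7 arrays for all 3, but at 42 °C, 6 h SF3A1 was below it when shift-corrected, and SF3A1 and SF3A3 after quantile normalization. The shift-corrected median of the 3 was 0.41, 0.60 and 0.56 log2 units at 44 °C after 0, 6 and 12 h.

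The SF3B subunits, which hold the branch-point adenosine, were also mostly above the control after 44 °C. All 6 were above the control at 44 °C, 0 h under each scaling, where 55.6% of bright genes, those reaching 4 times the floor, were above it when shift-corrected and 57.2% after quantile normalization. At 44 °C, 6 h it was 6 of 6 shift-corrected and 5 of 6 after quantile normalization, against 55.6% of bright genes on either scale. At 44 °C, 12 h the counts were 5 and 4 of 6, against 53.5% and 52.2%. SF3B4, which contacts RNA upstream of the branch site, read 879.8 in the control, 796, 1316 and 1050.2 at 42 °C and 1838, 1239 and 1070.5 at 44 °C. At 44 °C, 0 h it was 2.09 times the control as deposited and 1.58 times shift-corrected. SF3B3 read 881 in the control and 1477, 1059 and 654 at 44 °C, and was the 1 subunit below the control at 12 h when shift-corrected. SF3B6, the branch-point binding p14, read 4194 in the control and 7013, 4942 and 5338 at 44 °C.

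The range over the arrays was set beside that of other genes. As deposited, 12 of 43 genes (27.9%) spanned 2-fold or more, against 50.3% of all genes reaching the floor. Shift-corrected it was 9 (20.9%) against 32.2%, and after quantile normalization 6 (14.0%) against 32.3%. Most of these genes are bright, however. Among genes with a mean intensity of at least 1000, 6 of 32 (18.8%) spanned 2-fold against 25.9% of all such genes as deposited, 5 (15.6%) against 10.6% shift-corrected, and 2 (6.25%) against 9.87% after quantile normalization. At equal brightness the order thus turned with the scaling, and the set cannot be called steadier than other genes.

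Some of the other probe sets of the same genes differed from the chosen ones, while most did not depart from them as defined below. In all there were 152 single-gene probe sets, 108 besides the chosen, of which 78 in 33 genes reached 4 times the floor (85.4). The position of these probe sets in the transcript is not in the files, so which exon, intron or 3′ end each reads was not determined. They matter because a transcript form with a retained intron or other 3′ end would be read by some and not by others. Departing was judged by the log2 difference from the control as deposited. A probe set departed when its difference was at least 1 unit away from that of the chosen probe set of its gene. This cancels a uniform array shift only where no reading is under the floor. It does not cancel a shift that varies with brightness, and the chosen probe set is the brighter one. On at least 1 heated array 19 of the 78, in 15 genes, departed. The like count over all genes was not made, so nothing is read from this one.

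Directly after 42 °C, 8 of 78 (10.3%), in 8 genes, departed downwards and 2 (2.56%) upwards, against 3.22% and 2.21% of 7338 other probe sets of all genes. At 42 °C the downward share was 5.13% at 6 h and 2.56% at 12 h, against 2.75% and 3.18%. At 44 °C it was 6.41%, 7.69% and 7.69% at 0, 6 and 12 h, against 3.49%, 4.17% and 5.18%. The upward shares on these 5 arrays were 3.85%, 2.56%, 3.85%, 0% and 0%, against 2.6%, 1.44%, 4.09%, 2.26% and 3.46%. Some of the 78 belong to the same gene and are not independent readings. Taken by themselves, 5 of the 78 probe sets (6.41%) fell at 42 °C, 0 h, against 2.94% of 7372 such probe sets, and 0 rose, against 1.94%. These 5 belong to HNRNPD, HNRNPDL, HNRNPA2B1, SRSF3 and SRSF7, and the chosen probe set of none of these genes was called. At 42 °C, 6 h 1 of 78 (1.28%) rose, against 2.32%, and 0 fell, against 1.45%. At 42 °C, 12 h 0 rose and 0 fell, against 1.14% and 1.48%. From 0 to 6 h after 42 °C 8 of 78 (10.3%) rose, against 5.2%. After 44 °C the falls were nearer the background, with 2 of 78 (2.56%) at 0 h, 4 (5.13%) at 6 h and 4 (5.13%) at 12 h, against 1.82%, 4.64% and 7.04%. At 6 h 7 of 78 (8.97%) were lower after 44 °C than after 42 °C, against 8.15%.

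HNRNPD, also known as AUF1, which binds AU-rich elements and marks messages for decay, had the largest such fall. Its probe set 213359_at read 186 in the control, 33.2, 202 and 212 at 42 °C and 42.8, 25.5 and 99.7 at 44 °C, while the chosen one read 4678, then 4380.3, 4362 and 4649.9, then 7212, 5629 and 4053. The signal of 213359_at fell 5.62-fold directly after 42 °C (shift-corrected 5.12-fold) and was near the control value at 6 h. After 44 °C it fell 4.36-fold at 0 h and 7.32-fold at 6 h, and rose 3.92-fold from 6 to 12 h, the 1 probe set of the 78 to do so (1.28%, against 0.407%). Of the other bright HNRNPD probe sets, 209330_s_at and 221481_x_at followed the chosen one, reading 2948 and 3009 at 42 °C, 0 h after 3496 and 3891 in the control.

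In HNRNPDL, a paralog of HNRNPD, probe set 212454_x_at read 1029 in the control, 286, 1199.8 and 1275 at 42 °C and 684, 537 and 540.2 at 44 °C. Its signal fell 3.59-fold at 42 °C, 0 h (shift-corrected 3.28-fold), where the chosen probe set read 2224 after 3192 in the control. In HNRNPA2B1, probe set 225107_at read 407 in the control, 122, 551 and 469.7 at 42 °C and 223, 140.1 and 176 at 44 °C. It fell 3.35-fold at 42 °C, 0 h and 2.91-fold at 44 °C, 6 h. As deposited, both were above the control 6 h after 42 °C and stayed below it on all 3 arrays after 44 °C.

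SRSF3 and SRSF7 are SR proteins known to control their own splicing. For SRSF3, probe set 232392_at read 91.2 in the control, 27.5, 195 and 149 at 42 °C and 24.02, 3.3 and 25.6 at 44 °C. It fell 3.31-fold at 42 °C, 0 h, and at 44 °C 3.80-fold, at least 4.27-fold and 3.56-fold, the second being a bound because the reading was under the floor. For SRSF7, probe set 213649_at read 365 in the control, 83.0, 414 and 299.6 at 42 °C and 457, 211 and 248 at 44 °C. It fell 4.40-fold directly after 42 °C, and was 5.51-fold higher directly after 44 °C than directly after 42 °C (shift-corrected 3.81-fold). It was called against the control on 1 array, and the SRSF3 probe set on 4.

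HNRNPA1, the classic splicing silencer, had no call after 42 °C. Its probe set 221919_at read 168 in the control, 109, 239.7 and 173 at 42 °C and 129, 62.9 and 71.1 at 44 °C, and fell 2.67-fold at 44 °C, 6 h. There the chosen probe set read 1927, after 1847 in the control.

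**Figure D4:**
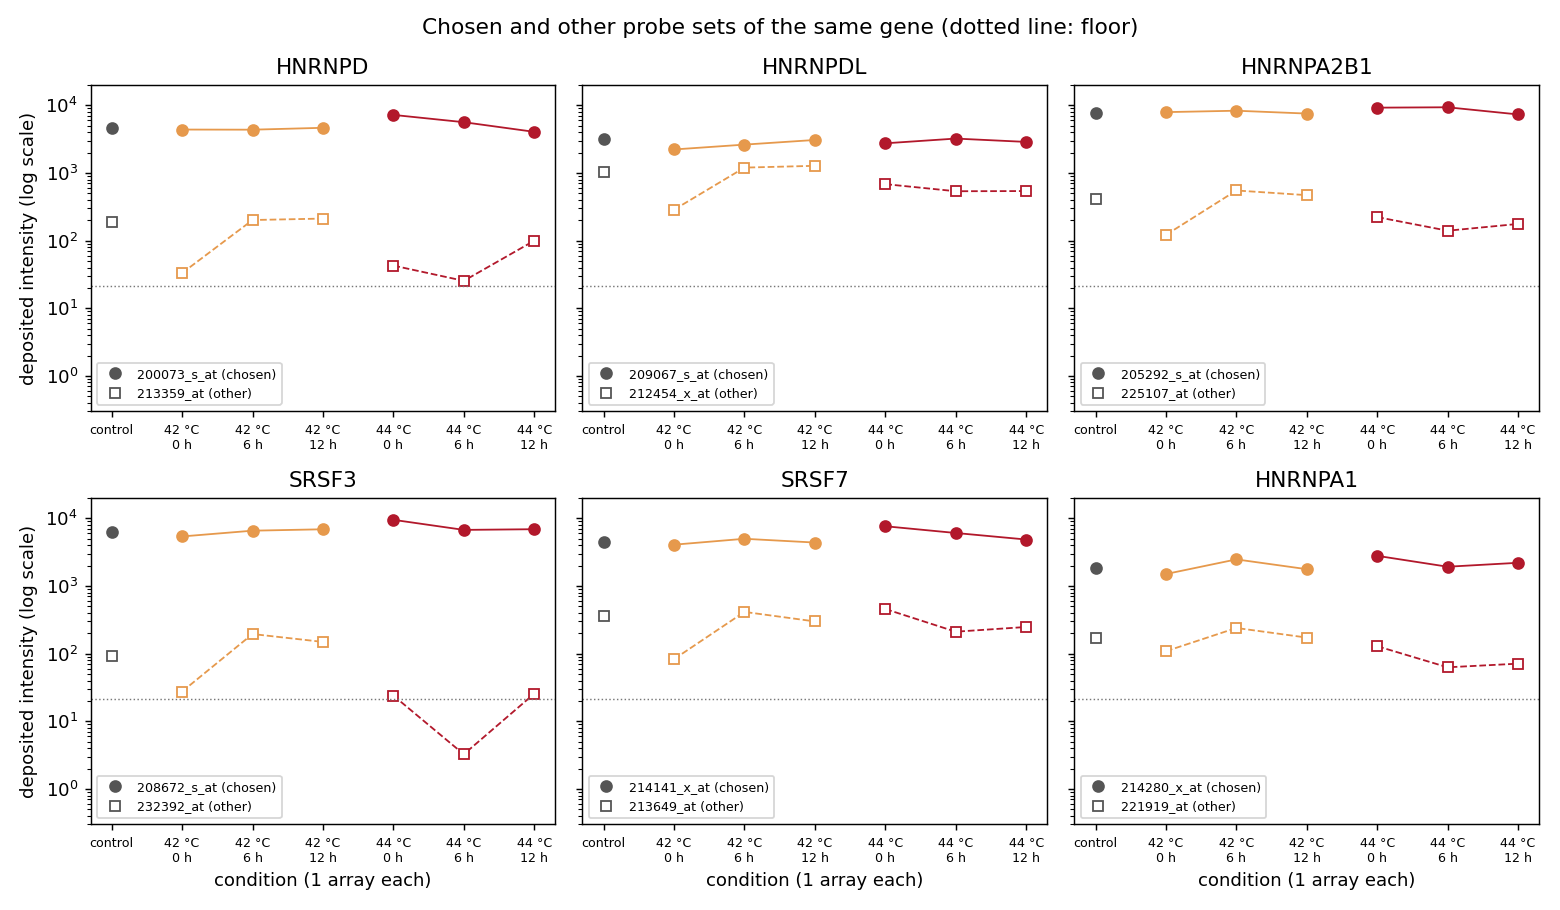
Deposited intensity (log axis) of the chosen probe set (filled circles) and 1 other (open squares) of HNRNPD, HNRNPDL, HNRNPA2B1, SRSF3, SRSF7 and HNRNPA1 on the 7 arrays, with the floor of 21.4 dotted. The other is the gene's bright probe set that departs farthest downwards on any heated array, so a low reading follows from the choice. The chosen probe sets range by at most 1.87-fold. The others shown are below the control directly after 42 °C (HNRNPD from 186 to 33.2) and, as deposited, above it 6 h later. Shift-corrected, those of HNRNPD, HNRNPDL and SRSF7 are then below it by 0.13, 0.02 and 0.06 log2 units.

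Some probe sets were instead high directly after 44 °C. There, 3 of the 78 probe sets rose (3.85%, against 3.66% of all such probe sets). They belong to SRSF4 and SRSF7, and 2 of them, 239511_s_at and 211439_at, reached the brightness minimum on this array alone, so nothing is read from the count. For SRSF4, 242837_at read 128 in the control, 89.1, 171 and 84.9 at 42 °C and 338, 109 and 95.7 at 44 °C, a rise of 2.65-fold (shift-corrected 2.01-fold). A second SRSF4 probe set, 239511_s_at, read 15.1 in the control and 96.4 at 44 °C, 0 h, at least 4.51-fold higher (shift-corrected at least 3.42-fold). Its rise was not confined to that array. At 42 °C it read 30.9, 69.9 and 30.7, and at 6 h it rose at least 3.27-fold (shift-corrected at least 2.77-fold). Probe set 239512_at of SRSF4 read 64.4 in the control, 90.4, 115 and 84.2 at 42 °C and 151 at 44 °C, 0 h, without a call against the control. For SRSF7, 211439_at read 37.4 in the control, 32.9, 42.9 and 39.0 at 42 °C and 146, 29.7 and 43.9 at 44 °C, a rise of 3.90-fold (shift-corrected 2.95-fold).

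For TRA2A, 2 less bright probe sets had a like peak. Probe set 213593_s_at read 60.2 in the control and 157, 40.9 and 70.2 at 44 °C, and 229574_at read 91.6 and then 188, 68.4 and 82.5. The first reached the brightness minimum at 44 °C, 0 h alone. Both were among the 6 of 78 (7.69%, against 4.19%) called higher after 44 °C than after 42 °C at 0 h. Probe set 211439_at of SRSF7, also among the 6, reached that minimum there alone too, so nothing is read from the count. The 2 TRA2A probe sets were higher by 3.41-fold and 3.17-fold (shift-corrected 2.36-fold and 2.19-fold). At 42 °C, 0 h they read 45.9 and 59.3, below their controls, which widens these folds. The chosen TRA2A probe set read 1604 after 44 °C and 1538 after 42 °C. At 44 °C, 12 h, probe sets 225385_s_at of HNRNPLL, a regulator of splicing in lymphocytes, and 228760_at of SRSF8 fell 3.19-fold and 3.02-fold.

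The wider splicing machinery was read from lists of related genes, whose counts stand against the shares of all genes called in the same comparisons given above. The highest of these shares were 2.12% higher at 44 °C, 0 h and 3.53% lower at 44 °C, 12 h among the 44 °C arrays against the control, and 4.45% lower between temperatures at 6 h. Among 13 kinases and phosphatases of SR proteins with a value, 0 were called at 42 °C and 1 at 44 °C. AKT1, a kinase that can phosphorylate SR proteins, read 302 in the control and 894 at 44 °C, 0 h, a rise of 2.96-fold (shift-corrected 2.24-fold). At 6 h DYRK1A and DYRK3, kinases of nuclear speckle proteins, were lower after 44 °C than after 42 °C by 2.95-fold and 3.99-fold, and PPM1G, a phosphatase that associates with spliceosomes, was 2.41-fold higher. DYRK3 read 238 after 42 °C and 59.6 after 44 °C there, with 106 in the control.

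Among 25 SR-related and speckle proteins, SCAF8, a binder of the RNA polymerase tail, fell 2.77-fold at 42 °C, 0 h, from 731 to 264, and stood at 1016 at 6 h. SRRM2, a scaffold of nuclear speckles, read 166 in the control and 457 at 44 °C, 0 h, a rise of 2.75-fold, and SCAF1 read 54.8 and 147 on the same arrays, a rise of 2.68-fold. RBM5, a splicing regulator of apoptosis genes, read 491 in the control, 341, 1084 and 819 at 42 °C and 688, 370.3 and 259.8 at 44 °C. It rose 3.17-fold between 0 and 6 h after 42 °C, and was lower after 44 °C than after 42 °C by 2.93-fold at 6 h and 3.15-fold at 12 h. Its highest array is thus that of SRSF5, as is its direction at 44 °C over recovery.

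Of 21 U1, U2 and Sm core proteins none was called in any of the 9 comparisons. In that list 20 of 21 were above the control at 44 °C, 6 h when shift-corrected and 18 of 21 after quantile normalization, against 55.6% of bright genes on either scale, with a shift-corrected median 0.35 above that of all genes and a quantile one 0.11 above. Of 31 tri-snRNP and catalytic factors 0 were called against the control, and of these SART1 was 2.20-fold higher after 44 °C than 42 °C at 6 h and LSM8 3.16-fold lower at 12 h. Of 29 other regulators of splice choice 0 were called against the control and MBNL2, a muscleblind protein, was 2.04-fold lower after 44 °C than 42 °C at 0 h (1789 and 876). Of 8 nonsense-mediated decay genes 0 were called against the control and SMG8 was 3.14-fold lower after 44 °C than 42 °C at 6 h.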

How the data were processed

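The deposited values are probe set intensities on a linear scale, 54675 probe sets on each of 7 arrays, with 0 value columns unused. Per the labels, 5 µg of total RNA was amplified and labelled for each array. The algorithm behind the intensities was not given in the sources used here. Of the probe sets, 41097 listed 1 gene, 1801 several and 11777 none, and symbols were updated with a GRCh38.p14 gene table, used for names only. Values were scaled, set to the floor of 21.4, then taken to log2. The genes and lists were chosen with earlier results of these data known. Named genes were 35 in all. They were the CLK and TRA2 genes, those called in a comparison, the largest differences from the control, and the highest and lowest mean of each role group. Genes with another probe set that reached the floor and departed from the chosen one on any heated array were named too. Disagreement between the probe sets of such genes thus follows from the choice. The genes of the wider lists and the single probe sets were picked with their values in view, as was SRSF12. The comparisons between recovery times and the departure counts were added after the data were seen. The yardstick for a moved value was the robust SD between bright probe sets of 1 gene. Calling was tested on simulated data. Python 3.11.15, pandas 2.3.3, numpy 2.4.6 and matplotlib 3.10.9 were used.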

Additional observations from a re-analysis of the deposited data

How the results depend on the processing

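The number of the 43 genes past 2-fold depended on the scaling. At 42 °C, 0 h it was 1 (CLK1) by the rule and 2 by deposited values alone, with SRSF5. At 44 °C, 0 h it was 0 by the rule and 2 as deposited (HNRNPUL1, SF3B4), and at 44 °C, 12 h 0 by the rule, 2 as deposited (CLK4, SRSF5) and 1 by quantile normalization (SRSF5). Between temperatures at 0 h it was 1 by the rule, 4 as deposited, 2 by quantile normalization, 3 by the median shift and 2 with the mean of a gene's probe sets. At 6 h it was 1 and 3 as deposited, and at 12 h 0, 3 as deposited, 1 by quantile normalization (CLK1) and 2 by the median shift (CLK1, TRA2B). Fewer calls under the rule follow from its asking for all 3 scalings. No called value of a single gene changed sign. The median of the 43 genes minus that of all genes ranged from -0.24 to 0.32 log2 units over the 9 comparisons and their settings and took both signs within each comparison. The counts of downward-departing probe sets, whose alternatives were added after the data were seen, stayed within 1.5 times: 7 to 8 at 42 °C, 0 h and 4 to 6 at 44 °C, 6 h. No paired analysis was possible because each condition has 1 array. The absence of replicates limits every value, and probe sets near the floor have only bounds.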
